A study of Arabidopsis thaliana with 30 samples.

Results

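The comparison set 3 hypocotyl libraries of the Arabidopsis thaliana wild type at 24 h after cutting against 3 at 0 h. These are 6 of the 30 libraries of the series, chosen by their labelled genotype and time and by no measured value. Both groups are the Col-0 accession, kept in darkness on 1x MS medium until the seedlings were 7 days old, and both carry the label wounded. The hypocotyl is the stem below the cotyledons. It was cut with a scalpel, and about 50 explants of whole tissue were pooled in each replicate. The labels call the replicates biological but do not tie them to separate sowings or days. P-values therefore measure the spread between samples, which edgeR estimated over all 10 groups of the series. The labels used here do not give the light or medium of the explants after the cut. No uncut seedling of either age was analysed here. One day of wounding can therefore not be told apart from one day of further age or of time off the plant. The remaining libraries are wild type at 0.5, 1 and 3 h, and the hsfa1abd-2 mutant at the same 5 times, with 3 replicates per group. The name of that mutant refers to 3 HSFA1 genes (HSFA1A, HSFA1B, HSFA1D), which encode transcription factors that switch on heat shock genes.

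A hypocotyl that grows in the dark lengthens mainly by cell expansion, with little cell division. Cutting breaks cells and vascular strands and interrupts transport of hormones such as auxin along the organ. Within minutes, wounded plant tissue is known to raise jasmonate and to transcribe defence and stress genes. Over the following day, cells near a cut can re-enter the cell cycle and start to form callus or new organs. A comparison at 24 h records what remains of the early response together with what was built up later.

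The deposited table gives no gene identifier for its rows. Results are therefore given for features, each 1 row of the table, and described by level, direction, size and timing. No transcript could be assigned to any of the processes above, hypocotyl marker genes could not be read, and no sequence could be attached to a feature. Of 36635 rows, 10278 (28.1%) had no count in any of the 30 libraries and 7831 (21.4%) had counts too few to pass the filter. The other 18526 features were tested. The 6 libraries held 3236360 to 3903580 counts each. At these depths 3 counts equal 0.733 to 0.848 CPM, counts per 1000000 after TMM scaling (trimmed mean of M values). Replicates correlated across features at r = 0.976 to 0.981 in log2 CPM at 24 h and at 0.972 to 0.979 at 0 h. Pairs of 1 library from each time gave r = 0.802 to 0.853. Wild-type levels given below for 0.5 h include replicate 1 of that time, a shallow library with 578179 counts.

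One day after cutting, most of the tested transcripts stood at a different level than at the start. Of 18526 features, 10208 (55.1%) were called by edgeR's quasi-likelihood test at an adjusted p under 0.05, with 5558 (30.0% of those tested) higher and 4650 (25.1%) lower at 24 h. Changes of at least 2-fold were called in 5388 features (29.1%), of which 2888 (15.6%) rose and 2500 (13.5%) fell. The other 4820 calls were under 2-fold, with 2670 higher and 2150 lower. Large changes were fewer. At least 4-fold, 873 features rose and 987 fell, and at least 16-fold, 173 rose and 197 fell. Among calls of at least 2-fold the median rise was 1.57 and the median fall -1.72 on the log2 scale, with a median standard error of 0.263. The whole distribution was centred near 0, with a median log2 fold of 0.039 and quartiles of -0.544 and 0.659.

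**Figure D1:**
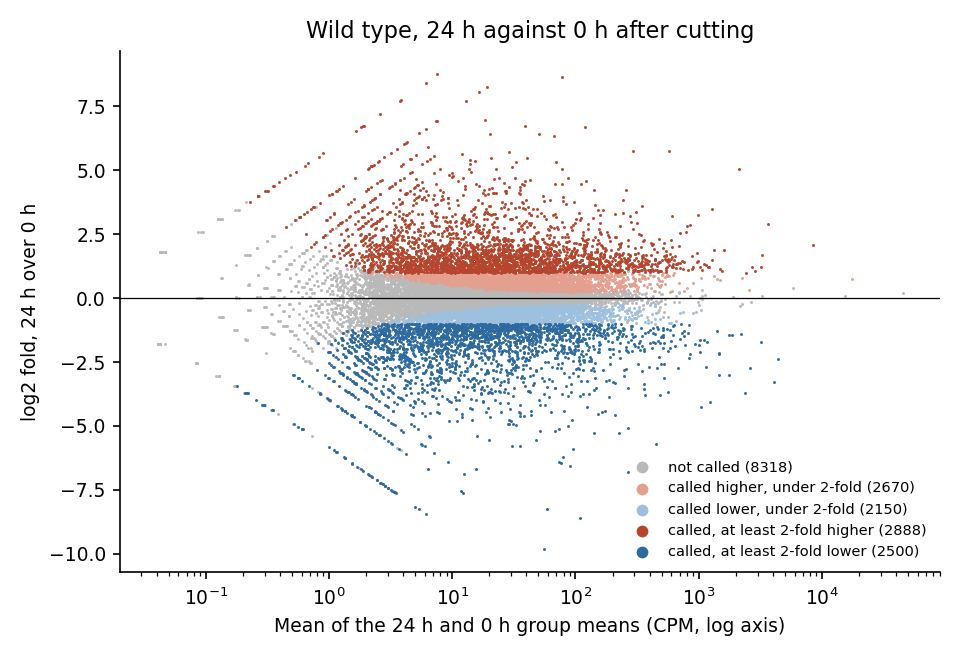
Each point is 1 tested feature of the wild type, with the mean of its 24 h and 0 h group means in CPM on a log axis and its log2 fold at 24 h over 0 h on the vertical axis. The 2888 features at least 2-fold higher (dark red) and the 2500 at least 2-fold lower (dark blue) span all levels, while the 8318 features not called (grey) narrow around 0 as the level rises.

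Which direction held the majority depended on how the libraries were scaled. With TMM factors 53.6% of the 2-fold calls were rises. With total counts alone the median log2 fold of all features moved from 0.039 to -0.085 and rises became 45.4%, 2438 against 2933 falls. Leaving out 1 of the 24 h libraries, or replicate 1 at 0 h, gave 49.0% to 50.2%. A fit of the 6 compared libraries alone, with 17043 features tested, gave 49.9%, 2462 rises against 2470 falls. The data therefore show rises and falls in similar numbers, with no majority that held under every scaling.

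Replicates of the 2 times lay apart in nearly all of these calls. The calls were made in the same libraries, so this describes them and tests nothing. In 2848 of the 2888 rises of at least 2-fold (98.6%), all 3 libraries at 24 h lay above all 3 at 0 h. In 2438 of the 2500 that fell (97.5%), all 3 lay below. Among all tested features the libraries of the 2 times did not overlap in 63.0%, with 34.2% higher and 28.8% lower at 24 h. A test against a 2-fold change in place of a change of 0 (glmTreat) is stricter, and left 1621 rises and 1407 falls.

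Most features without a call were measured tightly. Among the 8318 features not called, 5892 (70.8%) had a 95% interval of the fold wholly inside 2-fold in either direction. Their median level was 19.9 CPM. For the other 2426 the interval reached 2-fold, so a change of that size could not be told from none at this depth. Their median level was 2.90 CPM.

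Abundant transcripts were called more often than scarce ones, but the share called by at least 2-fold did not follow abundance in this way. Of 184 features with a mean of at least 500 CPM, 156 (84.8%) were called, and 126 of these by at least 2-fold, 74 up and 52 down (68.5% of the class). Of the 1586 features between 100 and 500 CPM, 75.2% were called and 37.6% by at least 2-fold. Of the 6883 features between 20 and 100 CPM, 61.6% were called and 23.2% by at least 2-fold. Between 5 and 20 CPM, 50.0% of 6398 were called and 27.1% by at least 2-fold. Below 5 CPM, 41.0% of 3475 features were called and 38.4% by at least 2-fold. Precision differs between these classes, since the median standard error of the log2 fold was 0.479 below 5 CPM and 0.152 between 20 and 100 CPM. Call rates below 5 CPM therefore reflect depth as well as change. The filter also bears on this class, since a feature could pass it through a single group where it was high. How far this raised the share called by at least 2-fold was not tested. Above 500 CPM the median standard error was 0.142, close to that between 20 and 100 CPM. Features that rose had a median of 27.04 CPM at 24 h and 8.22 CPM at 0 h. Those that fell had a median of 5.07 CPM at 24 h and 18.3 CPM at 0 h, and those not called 13.1 CPM at each time.

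The change was also large as a share of the messenger RNA pool. Between a library at 24 h and a library at 0 h, a mean of 28.7% of counts would have to be moved to other features to make the profiles equal (9 pairs, 26.2% to 31.5%). Replicates differed by 5.35% to 7.25% at 24 h and by 6.17% to 7.61% at 0 h, so the shift was about as large in every pair and well above replicate error. The 2888 rising features held 31.1%, 32.8% and 31.7% of counts in the 3 libraries at 24 h, against 12.4%, 10.4% and 11.3% at 0 h. The 2500 falling ones held 6.38%, 5.51% and 6.54% at 24 h, against 23.4%, 26.2% and 25.2% at 0 h. Both sets were chosen in these libraries, so the shares describe them and test nothing. In bulk tissue, a change in the number of cells of a type and a change in RNA per cell cannot be told apart.

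**Figure D2:**
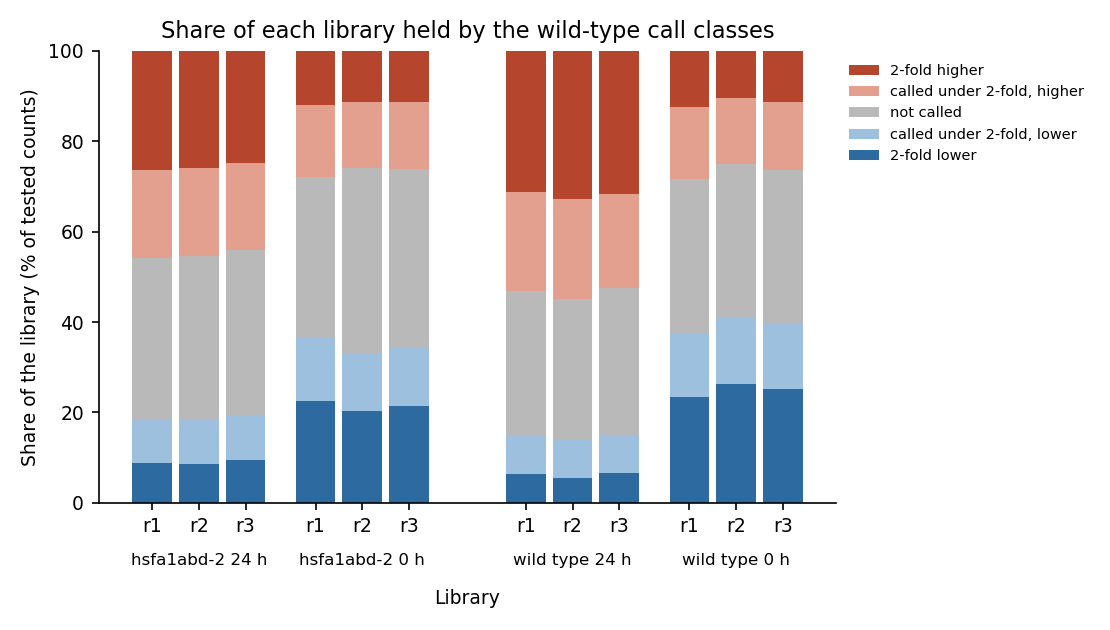
Each bar is 1 library, split into the share of its tested counts (percent) held by the 5 classes of features called in the wild type, with hsfa1abd-2 libraries on the left and wild-type libraries on the right, 24 h before 0 h. The dark red class fills 31.1% to 32.8% of wild-type libraries at 24 h, against 10.4% to 12.4% at 0 h, and the dark blue class 5.51% to 6.54%, against 23.4% to 26.2%.

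These shifts were spread over many transcripts. Of all CPM gained, 50% came from 256 features, and of all CPM lost, 50% came from 196. The 10 largest gains made up 15.1% of the gain and the 10 largest losses 15.02% of the loss. By row number, 4 features are given, the 2 with the largest rise and the 2 with the largest fall in mean CPM among called features whose replicates do not overlap.

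Feature 31341 gained the most. It stood at 13900, 14027 and 13416 CPM at 24 h, against 4402, 2152 and 3121 CPM at 0 h. The replicates at 24 h were close together, and those at 0 h were spread over more than 2-fold but all lower. Its mean was 13781 ± 322.4 CPM at 24 h and 3225 ± 1128 CPM at 0 h (SD, n = 3 each), a log2 fold of 2.095 (approximate standard error 0.305, adjusted p = 3.27e-06 by edgeR). It was the fourth most abundant feature at 24 h and the tenth at 0 h. At 0.5, 1 and 3 h its mean was 6068, 4972 and 4324 CPM, so most of the gain lay after 3 h.

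Feature 11626 was abundant throughout. It stood at 25194, 21333 and 19842 CPM at 24 h, against 14309, 12488 and 12720 CPM at 0 h, with no overlap. Its log2 fold of 0.75 (standard error 0.187, adjusted p = 0.00106 by edgeR) is under 2-fold, but it raised this feature to 2.20% of tested counts at 24 h, against 1.43% at 0 h. In hsfa1abd-2 its log2 fold was 0.05 (adjusted p = 0.863). The difference between the genotypes in this change, -0.70, did not pass the test (standard error 0.263, adjusted p = 0.143), so it is not shown to be particular to the wild type.

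Feature 3222 lost the most. It had 824.9, 653.8 and 816.5 CPM at 24 h, against 7067, 7880 and 7156 CPM at 0 h. All libraries at 24 h were far below all at 0 h, and the log2 fold was -3.27 (standard error 0.165, adjusted p = 8.72e-17 by edgeR). It was the fourth most abundant feature at 0 h, and its mean was lower at each later time, with 6436, 5242, 2749 and 765.1 CPM at 0.5, 1, 3 and 24 h.

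Feature 5923 had 1668, 1246 and 1281 CPM at 24 h, against 7734, 6353 and 7999 CPM at 0 h. These libraries did not overlap either, and the log2 fold was -2.40 (standard error 0.244, adjusted p = 4.42e-09 by edgeR). Its decline was later than that of feature 3222. The mean was 7362, 7217 and 6437 CPM at 0, 0.5 and 1 h and 3402 CPM at 3 h.

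**Figure D3:**
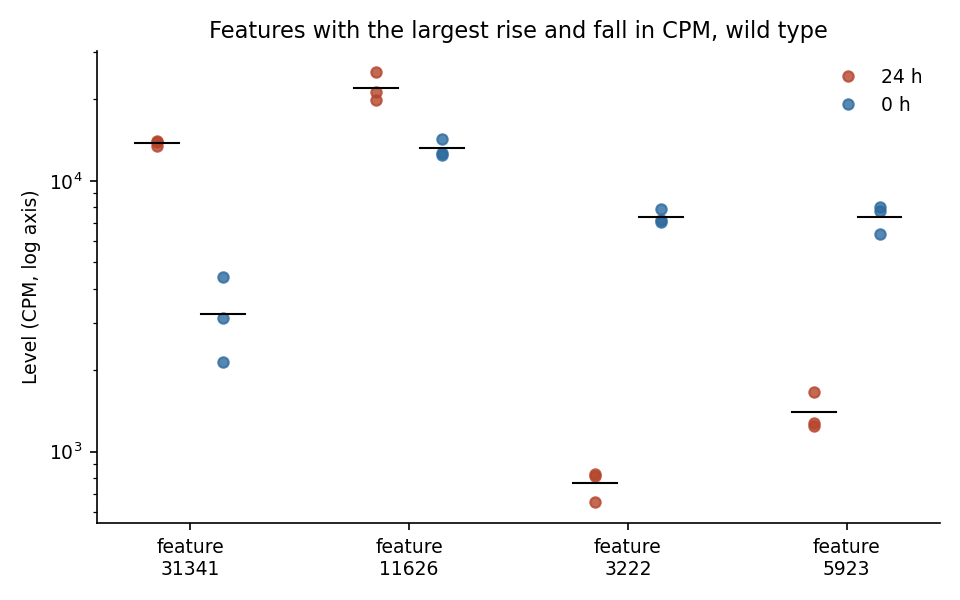
CPM on a log axis of the 2 features with the largest rise (31341 and 11626) and the 2 with the largest fall (3222 and 5923), for each wild-type library (points) with the group mean (line), 24 h left of 0 h. In each feature the 3 points at 24 h lie apart from the 3 at 0 h, by the smallest margin in feature 11626.

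The next 8 rises in CPM, ranks 3 to 10, ended between 2366 and 6378 CPM at 24 h, against 123.6 to 1923 CPM at 0 h. Their log2 folds were 1.07 to 5.06. The next 8 falls ended between 138.9 and 1516 CPM at 24 h, against 2312 to 4930 CPM at 0 h, with log2 folds of -4.06 to -1.39. Each of these 16 features changed at least 2-fold. Among features with over 10 counts on each side, the 20 largest rises reached 4.57 to 6.69 and the 20 largest falls -4.92 to -6.82 on the log2 scale.

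Libraries at 24 h were slightly less diverse than those at 0 h, and for 2 of 4 measures the direction rested on the most abundant transcripts. The effective number of features (the exponential of the Shannon entropy) was 3824 ± 110 at 24 h and 4170 ± 26.4 at 0 h (SD, n = 3 each). The smallest number of features that holds 50% of the counts was 851.7 ± 33.3 at 24 h and 963.7 ± 11.6 at 0 h. The 10 most abundant features of a library held 12.9% ± 0.436 at 24 h and 11.6% ± 0.047 at 0 h. At an equal depth of 3236360 counts, 20672 ± 13.7 features were expected to have a count at 24 h and 20884 ± 53.6 at 0 h. In all 4 measures the groups did not overlap, and the two-sided exact permutation test gave p = 0.1, the smallest that 3 against 3 allows (0.1 adjusted over the 4). Without the 5 most abundant features the first and the third measure turned round, with an effective number higher at 24 h by 43.0 (exact permutation p = 0.5) and a top 10 share that differed by -0.777 percentage points (p = 0.1). The other 2 kept their direction, with a difference of -65.3 in the features that hold 50% of the counts and of -179.4 in those expected at equal depth (exact permutation p = 0.1 each). Those 5 held 10.6% ± 0.398 of counts at 24 h and 8.46% ± 0.145 at 0 h, and 2 of them are features 31341 and 11626.

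Transcripts that appeared or vanished altogether were rare. In all, 16 features had at most 3 counts over the 3 libraries at 0 h and a mean of at least 10 CPM at 24 h, and 17 did the reverse. All 33 were called, against 55.1% of all tested features, but their choice in the same libraries favours a call. The 16 that appeared stood at 10.1 to 37.9 CPM at 24 h, with 22 or more counts of each in every library. For the 2 of them with no count at 0 h, the rise was at least 47.3-fold and at least 58.5-fold against a floor of 3 counts over the group. The 17 that vanished stood at 10.04 to 111 CPM at 0 h, the second highest at 31.0 CPM. For the 3 of them with no count at 24 h the fall was at least 37.8-fold to 46.3-fold by the same floor. In 1 of the 17, replicates 1 and 3 at 0 h held 0 and 1 counts, so its level at 0 h rested on replicate 2 alone. Both sets together were small in mass, at 0.0283% of counts at 24 h for those that appeared and 0.0392% at 0 h for those that vanished. Their numbers depend on the limits. With no count allowed on the silent side they were 2 and 3, and with at least 20 CPM on the other 4 and 5. Those that appeared numbered 25 and 27 without 0 h replicates 1 and 2, and those that vanished 26 without 24 h replicate 1.

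The features that appeared did so in steps. Of the 16, 1 reached 10 CPM at 0.5 h, 3 at 1 h and 8 at 3 h, and their median was 0.094, 1.097, 3.501, 10.6 and 13.4 CPM at 0, 0.5, 1, 3 and 24 h. Of the 17 that vanished, 12 were still at or above 10 CPM at 0.5 h, 5 at 1 h and 3 at 3 h. Their median was 12.7, 14.6, 5.62, 4.56 and 0.175 CPM at these times. None of the 17 had fallen to 3 counts or fewer by 3 h. In hsfa1abd-2, 15 of the 16 were also called higher at 24 h (26.6% of all tested features were) and 15 of the 17 lower (21.3% of all). The same limits on counts and CPM were met in the mutant by 2 of the 16 and 2 of the 17, and by 4 features in all in each direction. The mutant median of the 16 was 9.09 CPM at 24 h and 0.282 CPM at 0 h. That of the 17 was 0.479 CPM at 24 h and 15.6 CPM at 0 h. Both sets were chosen by these limits in the wild type, so no difference between genotypes is read from this.

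Levels between the ends of the day show when the net change was built up. All these changes are read against the same 3 libraries at 0 h, so the levels are given side by side with no test. The 2888 rising features had a median of 3.11, 3.59, 3.85, 4.32 and 4.78 log2 CPM at 0, 0.5, 1, 3 and 24 h. The 2500 falling ones had a median of 4.22, 3.94, 3.69, 3.57 and 2.45 log2 CPM. The median of risers was thus already higher at 3 h, whereas the larger part of the drop in fallers lay between 3 and 24 h. Over all tested features the median stayed between 4.11 and 4.23 log2 CPM at these times.

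In part of the features the mean at an earlier time was further from the starting level than the mean at 24 h. Any margin was counted, and no earlier time was tested against 24 h. The highest of the 5 group means was at 24 h in 1986 of 2888 risers (68.8%), at 3 h in 600 (20.8%), at 1 h in 191 and at 0.5 h in 111. Thus 902 of the risers had a higher mean at an earlier time than at 24 h, by margins that may lie within replicate error. The lowest mean was at 24 h in 2081 of 2500 fallers (83.2%), at 3 h in 172, at 1 h in 121 and at 0.5 h in 126. Over all tested features the highest mean was at 24 h in 31.9% and the lowest in 27.1%. Because both lists were chosen by their values at 24 h and 0 h, their shares at 24 h exceed those of all features by choice.

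**Figure D4:**
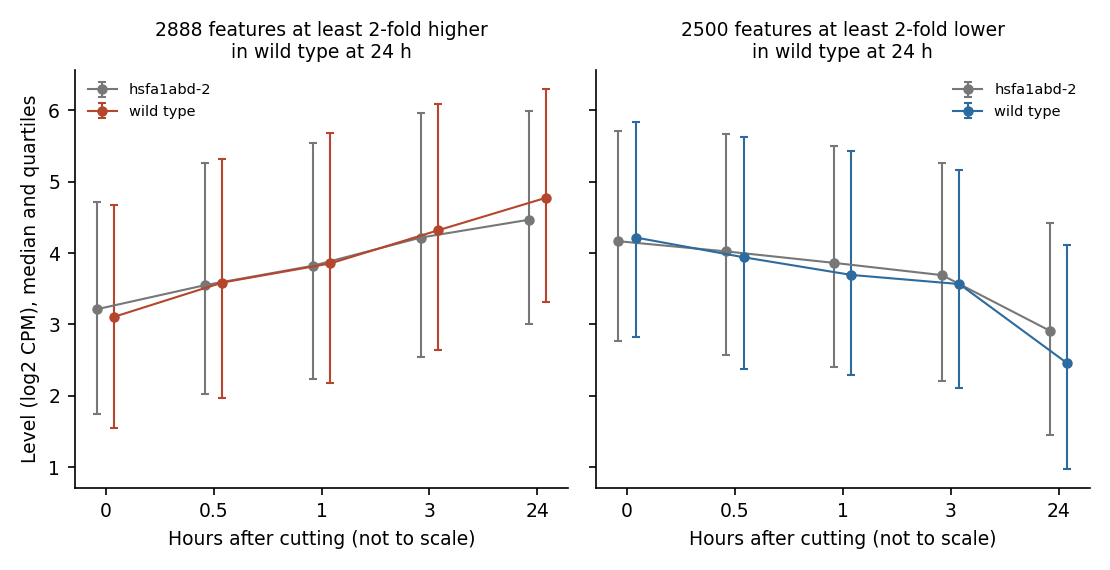
Median level in log2 CPM with quartiles (bars) over the 2888 features at least 2-fold higher (left) and the 2500 at least 2-fold lower (right) in the wild type at 24 h, in hsfa1abd-2 (grey) and in the wild type (coloured), by hours after cutting on an axis not to scale. In the wild type the left medians climb through all 5 times to 4.78, and the right medians fall most between 3 h (3.57) and 24 h (2.45).

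The comparison of 24 h with 0 h in hsfa1abd-2 shares no library with that in the wild type, but its libraries entered the same filter, scaling and dispersion estimates. In them 2485 of the 2888 rises (86.0%, exact 95% interval 84.7% to 87.3%) were also called higher at 24 h than at 0 h, and none were called lower. Of the 2500 falls, 1968 (78.7%, 77.1% to 80.3%) were called lower and 9 higher. With each genotype fitted on its own 6 libraries, 86.4% of the rises and 82.2% of the falls recurred. Over all tested features, 26.6% were called higher and 21.3% lower in the mutant. From the other side, 1964 of the 2181 rises of at least 2-fold in hsfa1abd-2 (90.0%) and 1724 of the 1925 that fell (89.6%) were called the same way in the wild type. The intervals treat features as independent, which they are not, so they describe counting error only.

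From the smallest to the largest wild-type changes, the share called the same way in the mutant was higher. For falls of 2 to 4-fold, 71.8% of 1513 were called lower in hsfa1abd-2, and for falls of at least 16-fold, 92.4% of 197. For rises the shares were 84.4% of 2015 and 91.9% of 173. The median change was smaller in the mutant in every class. In the class of 2 to 4-fold rises it was 1.03 in hsfa1abd-2 and 1.35 in the wild type, and for rises of at least 16-fold 3.72 and 4.65. For falls of 2 to 4-fold it was -0.98 in hsfa1abd-2 and -1.36 in the wild type, and for falls of at least 16-fold -3.68 and -4.87. The classes were cut on wild-type values, a choice that favours larger values in the wild type. The pool shares moved the same way. The rising set held 25.7% ± 0.704 of counts in hsfa1abd-2 at 24 h and 11.6% ± 0.440 at 0 h (SD, n = 3 each). The falling set held 8.90% ± 0.446 at 24 h and 21.4% ± 1.11 at 0 h. In all, 23.9% of counts would have to be moved between times in the mutant (9 pairs, 22.8% to 25.1%), with no test against the wild type. Mutant replicates differed by 4.49% to 5.31% at 24 h and by 6.06% to 11.3% at 0 h.

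**Figure D5:**
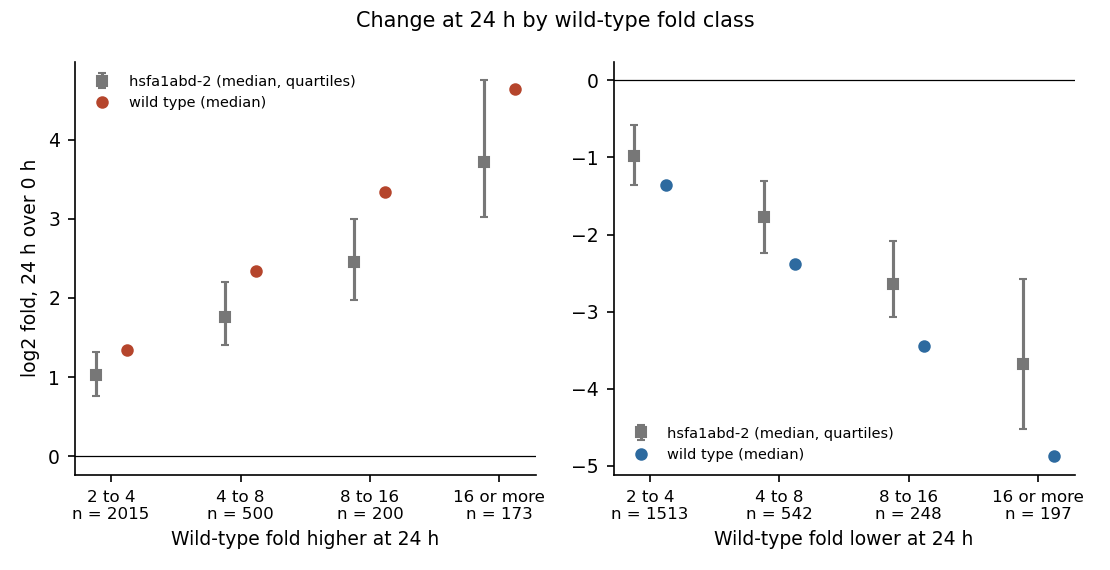
Median log2 fold at 24 h over 0 h in hsfa1abd-2 (grey squares, bars from the lower to the upper quartile) and in the wild type (coloured circles), for features grouped by their wild-type fold, rises on the left and falls on the right. The grey median is nearer to 0 than the coloured one in all 8 classes, from 1.03 against 1.35 in the smallest rises to -3.68 against -4.87 in the largest falls.

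Few of these features passed a direct test of the difference between genotypes. The change from 0 to 24 h differed in 584 of all tested features (3.15%) by edgeR's quasi-likelihood test of the interaction, 268 (1.45%) with the lower and 316 (1.71%) with the higher value in hsfa1abd-2. Among the 2888 wild-type rises the change differed in 191, each with the lower value in the mutant, a smaller rise or a change the other way. Among the 2500 falls it differed in 210. In the mutant 209 of these had the higher value, a smaller fall or a change the other way, and 1 had a larger fall. Since these lists were chosen by the wild-type part of the same contrast, nothing is read from their shares. Of 403 rises not called in hsfa1abd-2, 34 passed this test, and of 523 falls not called, 73 did. The median change of the 403 was 0.49 in hsfa1abd-2 and 1.37 in the wild type, and 361 of them had a positive fold in the mutant. Most wild-type calls missing from the mutant were thus not shown to differ. The count of 584 varied with single libraries, from 248 to 653 over 13 omissions of 1 library. The omissions that changed it by over 1.5 times all lowered it, and only these are listed here. Leaving out replicate 2 or 3 at 0 h in the wild type gave 248 or 386, and leaving out its replicate 2 at 24 h gave 262. In hsfa1abd-2, omitting replicate 3 at 0 h gave 386, and omitting replicate 2 or 3 at 24 h gave 339 or 256. In a fit of the 12 compared libraries alone it was 1645.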

How the data were processed

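Libraries were made with a Kapa stranded mRNA kit, per the labels' protocols. The submitters' processing notes name fastp, STAR and TAIR10. No counting tool, strand setting or annotation is named in the sources used here, so reads of paralogs, overlapping genes and antisense partners may be split or merged. The authors deposited raw counts per feature and library, not normalized, with no gene identifiers. The members and lists were chosen with earlier results of these data known. Planned gene and marker lists had no identifiers to match, so none was tested.

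Counts of all 30 libraries (10 groups) were fitted together in edgeR 4.0.16 (R 4.3.3, limma 3.58.1). Features passed filterByExpr (minimum count 10, minimum total 15). Scaling was by TMM, followed by robust estimateDisp and glmQLFit. The fit had 20 residual degrees of freedom and a common biological coefficient of variation of 13.1%. P-values of glmQLFTest were adjusted by Benjamini-Hochberg over all 18526 features at a threshold of 0.05. Log2 CPM uses a prior count of 2. Standard errors are approximate and come from dividing the absolute log2 fold by the root of its F value. Library measures used all rows and were compared with scipy 1.17.1. Alternatives included DESeq2 1.42.0 and leaving out libraries. The 4 features given by number are the 2 largest rises and 2 largest falls in mean CPM among called features whose replicates do not overlap.

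Tested on simulated counts of 18526 features for 24 h against 0 h in the wild type, the test called 63 of 70 features changed 4-fold (90%), 45 of 73 changed 2-fold (61.6%), 13 of 57 changed 1.5-fold (22.8%) and 5 of 18326 left unchanged. Few simulated features changed, in either direction, whereas 55.1% were called in the data. Scaling under so wide a change was therefore not tested, and these rates need not hold for the data. Binomial intervals and floors cover counting error only, while intervals of a fold also hold the spread between replicates. The shallow wild-type 0.5 h replicate 1 library, with 578179 counts (16.1% of the median), enters the common fit and all wild-type levels given for 0.5 h. It does not enter the comparison of 24 h with 0 h.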

Additional observations from a re-analysis of the deposited data

Results flagged for a closer look

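The net change over 24 h differed between the genotypes in 584 of 18526 features (3.15%) by edgeR's quasi-likelihood test of the interaction. The count ran from 248 to 653 with 1 library left out and was 1645 in a fit of 12 libraries. Among wild-type rises of at least 2-fold, 191 features had a smaller rise, or a change the other way, in hsfa1abd-2. Among wild-type falls of at least 2-fold, 209 had a smaller fall, or a change the other way, and 1 a larger fall in hsfa1abd-2. Both lists were chosen by the wild-type part of the same contrast, which favours smaller changes in the mutant, so nothing is read from their direction.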

How the results depend on the processing

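Of 245 recomputed values, 206 kept their direction, with counts within 1.5 times and tests on the same side of the threshold. The total of 10208 calls stayed between 8419 and 10282, with 9926 by DESeq2. The 4 features given by number were called with the same sign in every alternative that tested them, with the highest adjusted p at 0.0246 (feature 11626). Testing against 2-fold gave 1621 rises and 1407 falls. A minimum of 10 CPM left 13314 features to test, with 8419 calls and 1594 falls of at least 2-fold. The effective number of features differed by 43.0 and the top 10 share by -0.777 without the 5 most abundant features, reversing both. Features that appeared numbered 2 and 4 and those that vanished 3 and 5 under the stricter limits. The difference in change counted 1645 in 12 libraries and 874 by DESeq2. Separate fits put the share of falls called in the mutant at 82.2%. The test against 2-fold and the stricter limits lower their counts by design. The cause of the other differences was not tested.

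Leaving out 1 library gave 2589 to 2917 rises and 2355 to 2792 falls of at least 2-fold. It gave 79.0% to 86.3% of rises and 73.2% to 83.7% of falls recurring in the mutant, 248 to 653 features that differ in change, 16 to 27 that appeared and 13 to 26 that vanished. Leaving out mutant libraries, or the shallow one for the mutant results, was chosen after seeing the data. Deviations of same-numbered 24 h and 0 h libraries correlated at -0.021, -0.045 and 0.018, and those of differently numbered ones at -0.027 to 0.047. No pairing by replicate number was seen, but so few libraries cannot settle whether a sowing or day was shared. With a replicate block the calls were 10157, 2888 of them rises and 2496 falls of at least 2-fold, 574 features differed in change, and no count of calls moved by over 1.5 times. Depth limits features under 5 CPM, where the median standard error was 0.479.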
